A study of Homo sapiens with 12 samples.

Results

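The transcripts described here encode 8 enzymes that, SRD5A3 apart, interconvert active and less active steroids in the endometrium. They are the aldo-keto reductases AKR1C1, AKR1C2 and AKR1C3, the 5-alpha reductase SRD5A1 and its relative SRD5A3, the steroid sulfatase STS, and the cortisol dehydrogenases HSD11B1 and HSD11B2. The genes were chosen by symbol and matched to their Ensembl identifiers, which were found for 8 of 8, in a count table of 58735 genes. The table held 12 RNA-seq libraries, 3 in each of 4 groups. HEC-1A, a line from an endometrial adenocarcinoma, stood for epithelial cells, and T-HESC, telomerase-immortalised stromal fibroblast-like cells, for stroma. Each line received AG-205 at 15 µM, a compound sold as a ligand of the membrane-associated progesterone receptor component PGRMC1, or its solvent DMSO, for 32 h, with no progesterone added. The study describes the 3 libraries of a group as independent culture experiments, but each cell type is represented by 1 line.

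Steroid-converting enzymes act before the receptor: they decide which steroid a cell offers to its nuclear receptors. AKR1C1 reduces progesterone to 20-alpha-dihydroprogesterone, a weak progestin, and AKR1C2 is best known for inactivating dihydrotestosterone, whereas AKR1C3 makes testosterone and oestradiol from weaker ketosteroids. SRD5A1 reduces the A ring of progesterone and testosterone, STS frees oestrone and dehydroepiandrosterone from their sulfates, HSD11B1 regenerates cortisol from cortisone, and HSD11B2 does the reverse. The enzymes of the AKR1C group are encoded by neighbouring, closely similar genes on chromosome 10, so their sequences come before their read counts.

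AKR1C1 (ENSG00000187134) lies on the plus strand of chromosome 10 from 4963253 to 4983283 in GRCh38, AKR1C2 (ENSG00000151632) on the minus strand from 4987775 to 5018031, and AKR1C3 (ENSG00000196139) on the plus strand from 5035354 to 5107686. Their canonical coding sequences are each 969 bases long without the stop codon in GENCODE 44. AKR1C1 and AKR1C2 differed at 19 of these positions and shared an uninterrupted identical run of 186 bases. AKR1C1 and AKR1C3 differed at 83 positions, a nucleotide identity of 91.4%. A stretch that separates all 3 genes, coding positions 73 to 162, is printed below to show bases that tell a read of one gene from a read of the next. It is among the more divergent stretches, holding 10 of the 19 differences between AKR1C1 and AKR1C2. In the AKR1C1 line capitals mark every position at which either of the other two genes differs, and in the other lines they mark the bases that differ from AKR1C1, 10 for AKR1C2 and 11 for AKR1C3.
AKR1C1: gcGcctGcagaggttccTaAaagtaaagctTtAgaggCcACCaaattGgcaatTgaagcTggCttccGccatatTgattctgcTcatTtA
AKR1C2: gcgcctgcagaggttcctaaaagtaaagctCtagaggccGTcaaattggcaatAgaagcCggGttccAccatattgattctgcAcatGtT
AKR1C3: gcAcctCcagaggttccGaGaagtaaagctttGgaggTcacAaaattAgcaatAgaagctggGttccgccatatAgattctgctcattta

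The study sequenced both ends of each fragment over 150 bases, so windows of that length were compared between the canonical transcripts of the 4 AKR1C genes, AKR1C4 included. Of the 150-base windows of AKR1C2, 17.2% occurred without a mismatch in another AKR1C transcript, against 7.91% for AKR1C1, 2.12% for AKR1C3 and 0 of 1043 windows for AKR1C4. At 75 bases the share was 36% for AKR1C2 and 16.8% for AKR1C1. Within the coding sequence alone the share found in any other AKR1C transcript was higher with 75 bases, at 40.8% for AKR1C2 and 35.5% for AKR1C1. With 150 bases it was lower than over the whole transcript, at 7.32% and 4.63%. Most windows of each gene were unlike those of its neighbours at either length, but reads from the shared windows could be placed on either gene or discarded, and the handling of such reads was not given in the sources used here. For AKR1C1 and AKR1C2 single-gene counts are uncertain to that extent.

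**Figure D1:**
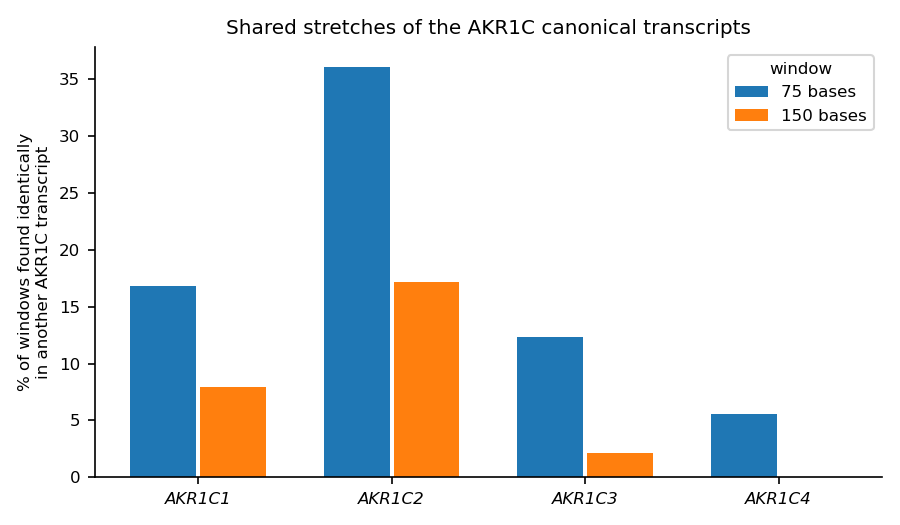
Percentage of all windows of 75 bases (left bars) and 150 bases (right bars) of each canonical AKR1C transcript that occur identically in the transcript of another AKR1C gene; the y axis is in percent of windows and starts at 0. AKR1C2 has the highest share at both lengths (36% and 17.2%), and AKR1C4 has none at 150 bases.

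The sequence before the start site was as alike as the coding sequence for one pair and not for the other. The 250 bases upstream of the RefSeq start are printed below. Capitals mark bases that differ from AKR1C1 in an alignment with free ends. As described further on, the levels of AKR1C1 and AKR1C2 had a correlation of 0.98 in T-HESC and of 0.25 in HEC-1A. The part of the upstream sequence in these values was not tested. AKR1C1 is from chr10:4963165-4963414 on the plus strand, AKR1C2 from chr10:5003858-5004107 on the minus strand and AKR1C3 from chr10:5094164-5094413 on the plus strand, all GRCh38.p14.
AKR1C1: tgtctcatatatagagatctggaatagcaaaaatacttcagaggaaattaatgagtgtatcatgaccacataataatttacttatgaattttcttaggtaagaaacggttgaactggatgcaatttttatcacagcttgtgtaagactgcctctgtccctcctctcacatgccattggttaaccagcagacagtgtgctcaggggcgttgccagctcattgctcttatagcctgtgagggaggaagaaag
AKR1C2: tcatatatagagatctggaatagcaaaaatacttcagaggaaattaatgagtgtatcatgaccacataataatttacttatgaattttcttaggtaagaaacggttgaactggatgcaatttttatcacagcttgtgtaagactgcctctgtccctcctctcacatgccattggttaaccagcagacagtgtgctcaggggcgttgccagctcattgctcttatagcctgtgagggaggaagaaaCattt
AKR1C3: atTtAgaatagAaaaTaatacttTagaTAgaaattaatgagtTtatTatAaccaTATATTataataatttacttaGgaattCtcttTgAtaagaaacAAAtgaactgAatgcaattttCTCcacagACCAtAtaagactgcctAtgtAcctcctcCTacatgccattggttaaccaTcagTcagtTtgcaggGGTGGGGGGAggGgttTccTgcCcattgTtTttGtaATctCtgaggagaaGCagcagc

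Over the 246 bases that overlap, AKR1C2 differed from AKR1C1 at 1 position, and AKR1C3 differed at 68 of 253 aligned positions, gaps included. The core of the antioxidant response element, TGACNNNGC, was searched on both strands of windows from 250 bases before to 50 bases after each RefSeq start. It was absent from the 4 windows of the AKR1C members and present in 2 of the 12 windows of the 7 members with an entry, 1 of SRD5A3 and 1 of STS, while 13.3% of all 35116 promoter windows held it. The core of the sterol regulatory element, CACCCCAC, occurred in 0 of the 12 windows, against 2.79% of all windows. RefSeq promoter windows were matched for 7 of 8 members, all but HSD11B2.

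Libraries held between 7168542 and 15178276 counted reads. The smallest was HEC-1A AG-205 replicate 3, and the library least like the others of its line was T-HESC AG-205 replicate 1, whose median correlation with them was 0.919 on the log scale, against 0.962 to 0.968 for the other T-HESC libraries. The lines carried their labelled markers: 6 of 6 stromal markers, such as VIM and COL1A1, were higher in T-HESC, and 4 of 5 epithelial markers, such as EPCAM and CDH1, were higher in HEC-1A, while KRT19 had a mean of 106 CPM (read counts scaled to the size of the library) in T-HESC and 100 in HEC-1A under DMSO. All CPM values below were scaled together over the 12 libraries with the trimmed mean of M values (TMM).

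Under DMSO the lines differed most in the AKR1C and cortisol enzymes. HEC-1A had high AKR1C1, AKR1C2 and AKR1C3 and a little HSD11B2, and T-HESC had some HSD11B1 and little or no AKR1C3 and HSD11B2, while STS, SRD5A1 and SRD5A3 were present in both lines. A gene was called when edgeR's quasi-likelihood test gave a Benjamini-Hochberg adjusted p under 0.05 and an absolute log2 fold change over 1. With T-HESC set against HEC-1A, 6 of the 8 members were called, 1 higher and 5 lower. The lines differ widely, and 44.6% of the 14789 genes tested were called, so the number of members called is read against that share. DESeq2 also called 6. In bulk samples, fewer expressing cells and less RNA per cell cannot be told apart.

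AKR1C3 showed the widest gap. HEC-1A DMSO libraries held 2846, 2576 and 2326 reads of AKR1C3, and T-HESC DMSO libraries held 1, 2 and 4. Every HEC-1A library lay far above every T-HESC library. The 7 reads of T-HESC gave a pooled level of 0.198 CPM against 216 ± 15.7 CPM (SD, n = 3) in HEC-1A, a ratio of 1091 with an exact Poisson 95% interval of 530 to 2715 that covers counting error only.

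AKR1C1 was the one AKR1C gene with an appreciable level in some stromal libraries. Its HEC-1A DMSO level was 151, 130 and 146 CPM, and its T-HESC DMSO level was 1.58, 3.31 and 28.6 CPM. The lines did not overlap, although the T-HESC libraries differed among themselves far more than the HEC-1A libraries did. The log2 fold change of T-HESC against HEC-1A was -3.74 (SE 0.810, adjusted p = 0.00284 in edgeR), a 13.4-fold lower level, and it ranged from -5.85 to -3.18 over the 12 alternatives run. AKR1C2 stood at 71.5, 69.3 and 68.2 CPM in HEC-1A and at 0.226, 0.497 and 3.40 CPM in T-HESC, the last from 34 reads, with its log2 fold change being -5.80 (SE 0.545, in edgeR adjusted p = 1.73e-05). With the reads of AKR1C1 to AKR1C4 summed, which removes any exchange of reads among them, the log2 fold change was -5.14 (adjusted p = 0.000579 in edgeR).

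The cortisol enzymes split by line, both at low levels. HSD11B1 (ENSG00000117594), which regenerates cortisol, had 0 reads in each of the 6 HEC-1A libraries and 20, 17 and 17 reads in T-HESC DMSO, or 1.54 ± 0.147 CPM (SD, n = 3). Set against a floor of 3 reads per HEC-1A library, the T-HESC level was at least 5.71-fold higher. HSD11B2 (ENSG00000176387), which inactivates cortisol, showed the reverse, with 31, 34 and 36 reads in HEC-1A DMSO and 1, 0 and 0 in T-HESC DMSO, so that the HEC-1A level was at least 9.45-fold higher. Neither enzyme overlapped between the lines. An unnamed gene on the opposite strand shares 9.29% of the HSD11B2 exon length, and whether strand was used in counting was not given in the sources used here.

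The 5-alpha reductases and the sulfatase differed less. SRD5A1 (ENSG00000145545) had 61.4, 63.0 and 61.1 CPM in HEC-1A DMSO and 31.9, 36.3 and 40.9 CPM in T-HESC DMSO. The groups did not overlap, and the log2 fold change of -0.78 (SE 0.113, adjusted p = 0.000264 in edgeR) passed the p limit but not the fold limit. SRD5A3 (ENSG00000128039), an enzyme of polyprenol reduction for protein glycosylation that is named for its likeness to the steroid reductases, had 18.2, 14.3 and 19.0 CPM in HEC-1A and 7.76, 9.12 and 7.99 CPM in T-HESC. Its log2 fold change of -1.06 (SE 0.161, adjusted p = 0.000354 in edgeR) lay at the fold limit and was no longer called without HEC-1A DMSO replicate 3 (-0.99), without T-HESC DMSO replicate 1 (-0.98) or without T-HESC DMSO replicate 3, where it came to rest just inside that limit. A transcript of the same strand shares 23.2% of the SRD5A3 exon length, which makes its count less certain.

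STS (ENSG00000101846) was the only member above the floor in both lines that measured higher in stroma. It measured 20.7, 23.7 and 27.4 CPM in HEC-1A DMSO and 40.5, 38.0 and 57.1 CPM in T-HESC DMSO, again without overlap. The log2 fold change was 0.90 (SE 0.180, adjusted p = 0.00181 in edgeR), short of the fold limit, and it reached 1.00 without T-HESC DMSO replicate 1 and 1.04 without T-HESC DMSO replicate 2, which then counted as calls.

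**Figure D2:**
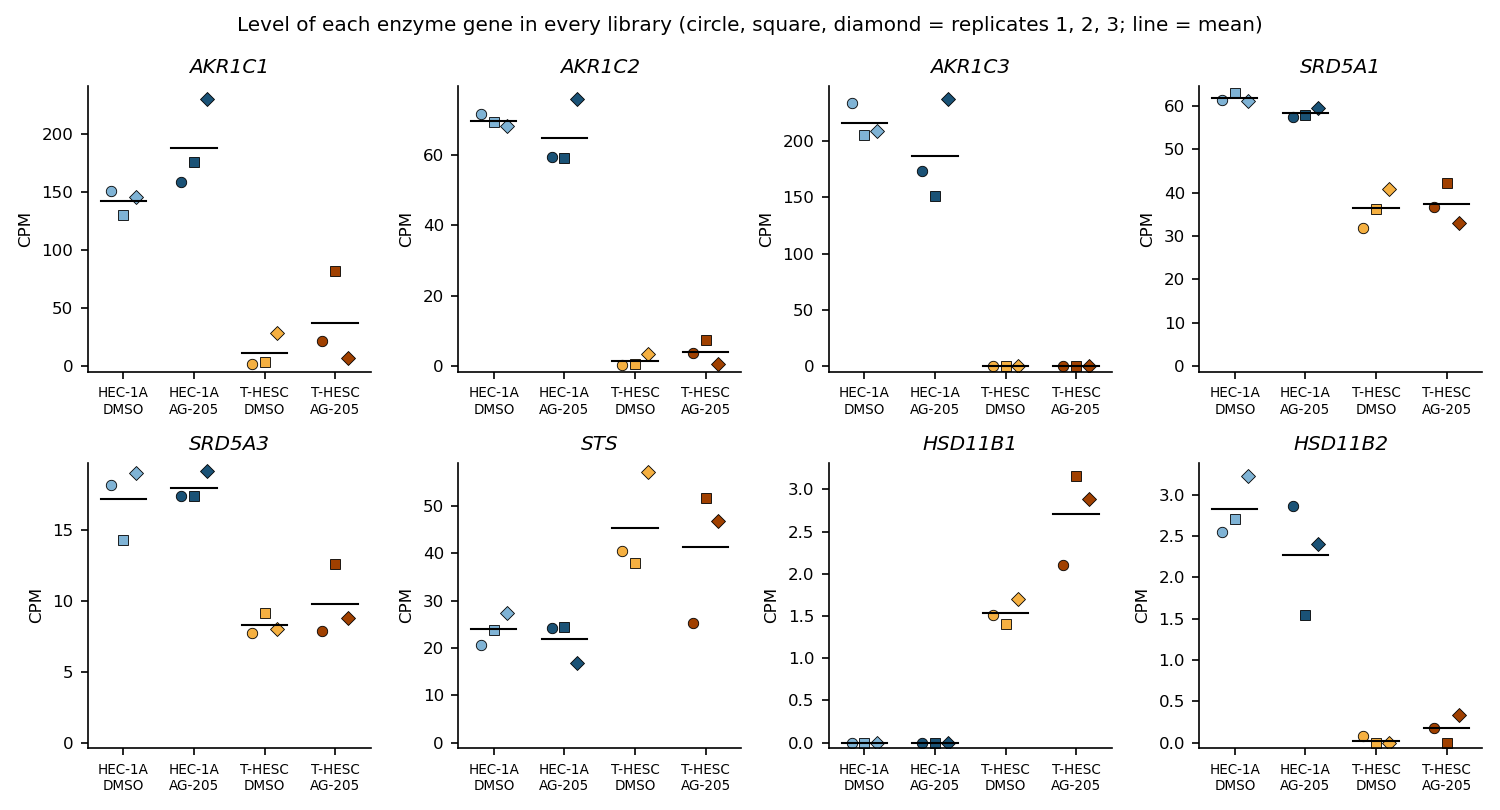
Level of the 8 enzyme genes in each of the 12 libraries, in CPM on the y axis of each panel and by line and treatment on the x axis; circle, square and diamond are replicates 1, 2 and 3 and the line is the group mean. AKR1C3 lies at 151 to 237 CPM in HEC-1A and below 0.4 CPM in T-HESC, HSD11B1 is at 0 in every HEC-1A library, and AKR1C1 in T-HESC runs from 1.58 to 82.2 CPM.

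Levels of different genes were compared only per kilobase of exon. In HEC-1A DMSO, with the summed length of all annotated exons, AKR1C3 led with a mean of 55.2 CPM per kilobase, followed by AKR1C1 (16.3), AKR1C2 (11.4), SRD5A1 (8.10), SRD5A3 (2.23), STS (1.94) and HSD11B2 (1.06). Of neighbours in that order, only SRD5A3 and STS had overlapping libraries. The order of AKR1C1 and AKR1C2 depended on the length: with the canonical transcript alone they had means of 21.8 and 21.7 CPM per kilobase, and their libraries overlapped. In T-HESC DMSO, SRD5A1 (4.77) and STS (3.67) came first with overlapping libraries and changed places with the canonical lengths (5.17 and 6.82). AKR1C1, SRD5A3 and HSD11B1 came next with means of 1.27, 1.08 and 1.02 CPM per kilobase and overlapping libraries.

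With AG-205 in HEC-1A, no member passed both limits. None of the 7 members tested was called, while 2.78% of the 14122 genes tested were. HSD11B1 had no reads and was not tested. At an unadjusted p under 0.05 there was 1 member, AKR1C1, in edgeR, beside 3693 of the 14122 genes tested. DESeq2 and limma with library quality weights called 0 members as well.

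AKR1C1 measured 159, 176 and 230 CPM with AG-205 and 151, 130 and 146 CPM with DMSO. All 3 treated libraries were above all 3 controls, the lowest treated value being close to the highest control. The log2 fold change was 0.40 (SE 0.132, adjusted p = 0.0680 in edgeR), or 1.32-fold with a 95% interval of 1.09 to 1.61. DESeq2 gave the same log2 fold change of 0.40 with an adjusted p of 0.0420, and over the 13 alternatives run the adjusted p ran from 0.00497 to 1.00, so the test passed or missed its p limit with the setting while the fold stayed between 0.23 and 0.51 on the log2 scale. Without AG-205 replicate 3, the smallest library, the log2 fold change was 0.23 (adjusted p = 0.0341 in edgeR).

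The other AKR1C transcripts of HEC-1A had fitted differences below 0. AKR1C2 measured 59.3, 59.0 and 75.7 CPM with AG-205 and 71.5, 69.3 and 68.2 CPM with DMSO, and AKR1C3 measured 173, 151 and 237 CPM with AG-205 and 234, 205 and 209 CPM with DMSO. For both genes AG-205 replicates 1 and 2 were below every control and replicate 3 was above every control. The log2 fold changes were -0.11 (SE 0.111, adjusted p = 0.571 in edgeR) and -0.21 (SE 0.144, adjusted p = 0.397 in edgeR). Without replicate 3 they were -0.24 (adjusted p = 0.0214 in edgeR) and -0.42 (adjusted p = 0.000250 in edgeR), still within the fold limit, and over all alternatives the adjusted p ran from 0.0214 to 1.00 for AKR1C2 and from 0.000250 to 0.970 for AKR1C3. The summed reads of AKR1C1 to AKR1C4 gave a log2 fold change of 0.04 (adjusted p = 0.879 in edgeR).

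The make-up of the AKR1C reads was set side by side within each HEC-1A library, a comparison that needs no scaling between libraries and was chosen after the values were seen. AKR1C1 supplied 40.5%, 45.4% and 42.3% of the reads of the 4 AKR1C genes with AG-205 and 33.0%, 32.0% and 34.4% with DMSO. The Wilson 95% intervals of the treated libraries, 39.2% at their lowest, lay above those of the controls, 35.8% at their highest. Such intervals cover counting error only, not the spread between cultures. The ratio of AKR1C1 to AKR1C2 reads was 2.68, 2.99 and 3.04 with AG-205 and 2.12, 1.88 and 2.15 with DMSO. Treated and control libraries did not overlap, replicate 3 included, and the mean ratio was 1.42 times the control mean (2.90 ± 0.194 against 2.05 ± 0.147, SD, n = 3 per group). The ratio of AKR1C1 to AKR1C3 reads was 0.920, 1.17 and 0.973 with AG-205 and 0.647, 0.634 and 0.700 with DMSO, again without overlap, and its mean was 1.54 times that of the controls. A two-sided exact permutation test gave p = 0.1 for each of the 2 ratios, the smallest value that 3 libraries against 3 allow. The ratio of AKR1C2 to AKR1C3 overlapped between treatments (exact permutation p = 0.400).

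**Figure D3:**
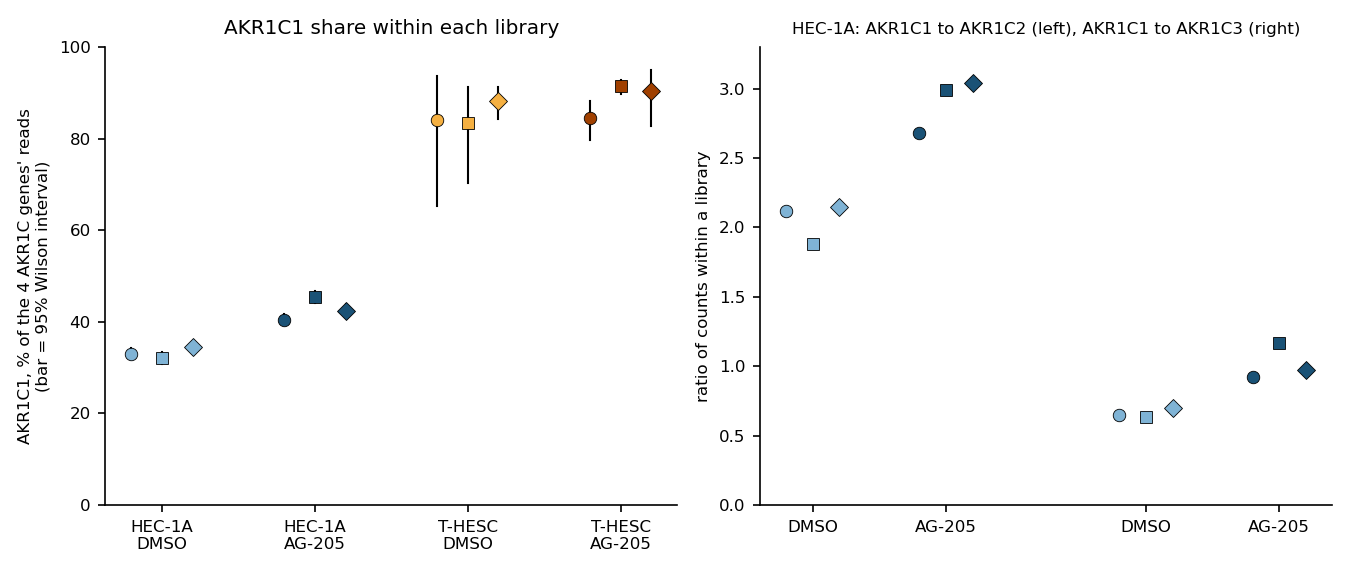
Left, reads of AKR1C1 as a percentage of the reads of AKR1C1 to AKR1C4 in each library, by line and treatment, with 95% Wilson intervals. Right, ratios of read counts within each HEC-1A library, AKR1C1 to AKR1C2 and AKR1C1 to AKR1C3, by treatment; circle, square and diamond are replicates 1, 2 and 3. In HEC-1A the 3 AG-205 libraries lie above the 3 DMSO libraries in every quantity plotted (for example 40.5% to 45.4% against 32.0% to 34.4%).

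The remaining members of HEC-1A showed small differences with AG-205. SRD5A1 measured 57.4, 57.9 and 59.4 CPM with AG-205 and 61.4, 63.0 and 61.1 CPM with DMSO, so that the groups did not overlap, yet the log2 fold change was only -0.09 (SE 0.0860, adjusted p = 0.571 in edgeR). Together, 2 of the 7 members tested, AKR1C1 and SRD5A1, had groups that did not overlap, and 31.4% of all genes tested had that property. SRD5A3 overlapped between treatments and had a log2 fold change of 0.07 (adjusted p = 0.799 in edgeR), as did STS with -0.12 (adjusted p = 0.665 in edgeR). HSD11B2 had 42, 21 and 20 reads with AG-205 and 31, 34 and 36 with DMSO, and its log2 fold change of -0.31 had a 95% interval of -0.88 to 0.26. KRT19, an epithelial keratin, was called higher with AG-205 in the same libraries (log2 fold change 1.09, SE 0.0861, adjusted p = 4.59e-06 in edgeR), and the summed level of the 5 epithelial markers was 1265 to 1382 CPM with AG-205 and 1009 to 1138 CPM with DMSO; its part in the results on these enzymes was not tested.

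In T-HESC, 0 of the 6 members tested were called with AG-205 by edgeR, 0 had an unadjusted p under 0.05, and DESeq2 called 0. The background was low too: 0.0800% of the 13753 genes tested were called, and 740 of them had an unadjusted p under 0.05 in edgeR. AKR1C3 and HSD11B2 were too low to be tested, with 4, 3 and 1 reads and 2, 0 and 4 reads in the AG-205 libraries.

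AKR1C1 ranged widely among T-HESC libraries of the same treatment. It measured 21.8, 82.2 and 7.21 CPM with AG-205 and 1.58, 3.31 and 28.6 CPM with DMSO, from 21 to 1093 reads. AG-205 replicate 2 was highest and DMSO replicate 3 came next, so the groups overlapped, and the highest library was 52.0 times the lowest. The log2 fold change was 1.74 (SE 1.14, adjusted p = 0.993 in edgeR), with a 95% interval of -0.90 to 4.37 that holds no change as well as a 20.7-fold increase. It was 0.35 without AG-205 replicate 2, 3.89 without DMSO replicate 3 and 2.01 without AG-205 replicate 1, the library that stood apart, and none of these was called. AKR1C1 was called in 2 of the alternatives, without a filter on low counts (log2 fold change 1.74, adjusted p = 0.00378 in edgeR) and with library quality weights (log2 fold change 3.90, adjusted p = 0.0352 in limma), and the adjusted p over all 13 alternatives ran from 0.00378 to 1.00.

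AKR1C2 followed AKR1C1 from library to library at far fewer reads. It had 40, 100 and 8 reads with AG-205 and 3, 6 and 34 with DMSO, and the fitted log2 difference was 1.56 (SE 1.05, adjusted p = 0.993 in edgeR). Over the 6 T-HESC libraries the 2 genes had a Pearson correlation of 0.98 on the log2 CPM scale, where AKR1C2 ranked 6 of 13341 genes by likeness to AKR1C1. The correlation is a description, since the paralogs share sequence and their libraries share depth. AKR1C3 had 1 to 4 reads in each of these libraries, too few to say whether it ran with AKR1C1, and the library with 1093 reads of AKR1C1 held 3 of AKR1C3, or 0.251% of its AKR1C reads. In HEC-1A, AKR1C1 and AKR1C2 had a correlation of 0.25 over 6 libraries.

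**Figure D4:**
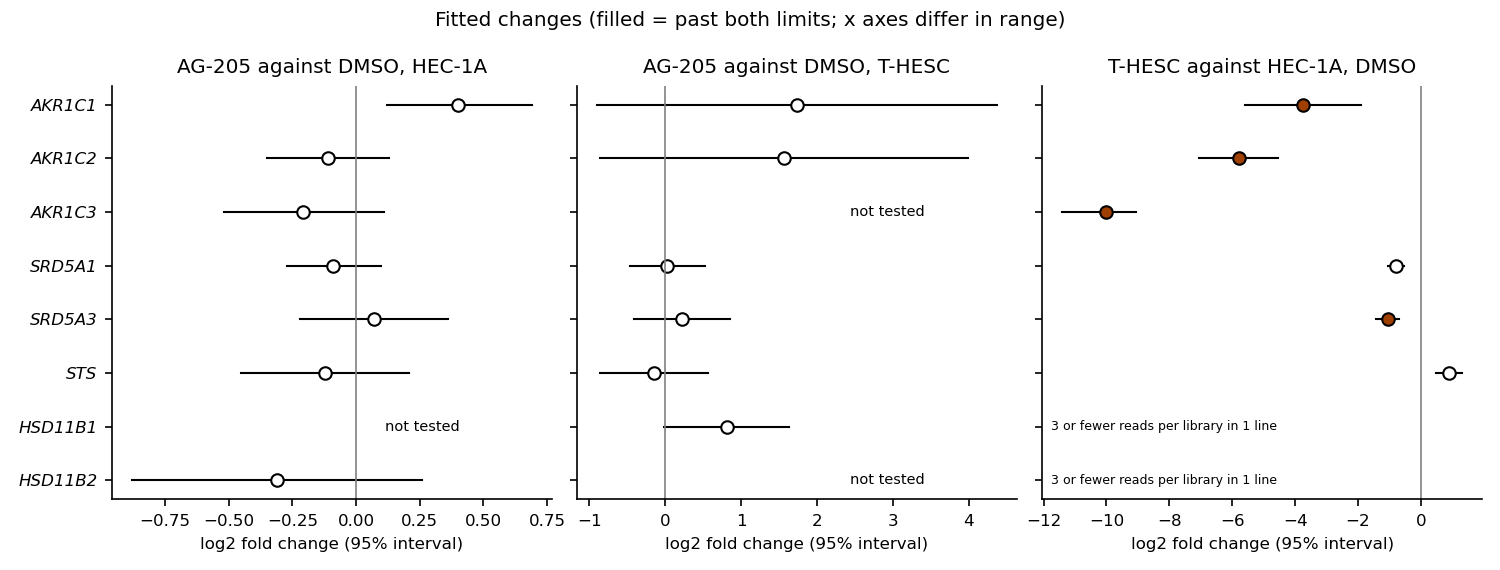
Log2 fold change (x axis) of each member (y axis) with AG-205 in HEC-1A, with AG-205 in T-HESC, and in T-HESC against HEC-1A under DMSO; bars are 95% intervals of the edgeR fit, except AKR1C3 between the lines, where the bar is the exact Poisson interval, and filled points passed both limits. With AG-205 no member is filled, the widest interval is that of AKR1C1 in T-HESC (-0.90 to 4.37), and the axes differ in range.

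HSD11B1 was the only T-HESC member whose treatment groups did not overlap, 1 of 6 against 11.0% of all genes tested. It had 23, 42 and 34 reads with AG-205, or 2.72 ± 0.548 CPM (SD, n = 3), and 20, 17 and 17 reads with DMSO, or 1.54 ± 0.147 CPM (SD, n = 3). Every treated library was above every control at these low counts. The log2 fold change was 0.81 (SE 0.359, 95% interval -0.02 to 1.63), with an unadjusted p of 0.0554 and an adjusted p of 0.948 in edgeR, and it was 0.95 without AG-205 replicate 1.

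SRD5A1 overlapped between treatments in T-HESC, at 36.7, 42.3 and 33.0 CPM with AG-205 and 31.9, 36.3 and 40.9 CPM with DMSO (log2 fold change 0.02, 95% interval -0.47 to 0.52). SRD5A3 had a log2 fold change of 0.22 (95% interval -0.41 to 0.85). STS measured 25.2, 51.7 and 46.8 CPM with AG-205 and 40.5, 38.0 and 57.1 CPM with DMSO. Its lowest value belonged to AG-205 replicate 1, and the log2 fold change turned from -0.15 to 0.10 without that library.

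The AG-205 effect was not shown to differ between the lines for any member. The test of the difference, over all 12 libraries, called 0 of 8 members with edgeR, beside 0.174% of the 16132 genes tested. At an unadjusted p under 0.05 there were 0 members in edgeR, beside 1025 of all genes tested, and DESeq2 called 0 members. The difference was 1.36 for AKR1C1 (T-HESC minus HEC-1A, log2 scale, 95% interval -1.33 to 4.04) and 1.74 for AKR1C2 (95% interval -0.41 to 3.89). Both were called without a filter on low counts and with library quality weights, and the AKR1C1 difference was -0.03 without T-HESC AG-205 replicate 2. For AKR1C3, SRD5A1, SRD5A3 and STS the differences were 0.36, 0.13, 0.17 and 0.00. The fitted difference of HSD11B2 was 2.53 (95% interval -0.18 to 5.23, unadjusted p = 0.0643, adjusted p = 0.818 in edgeR), which rests on 1, 0 and 0 reads with DMSO and 2, 0 and 4 with AG-205 in T-HESC and depends on the prior count of the fit. HSD11B1, with no reads in HEC-1A, gave no usable difference.

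The genes whose level ran most like that of AKR1C1 were ranked within each line. Over the 6 T-HESC libraries, among 13341 other genes with a mean of at least 1 CPM, these were UHRF2 (Pearson r = 0.997 on the log2 CPM scale), ACSL4 (0.995), SPP1 (0.992), HYCC1 (0.989) and OPCML (0.989). SPP1, which encodes the secreted phosphoprotein osteopontin, spanned a similar range, at 30.9, 126 and 14.0 CPM with AG-205 and 4.97, 6.13 and 39.8 CPM with DMSO. ACSL4, an acyl-CoA synthetase for long polyunsaturated fatty acids, ran from 95.3 to 209 CPM. In HEC-1A the closest were ARL6IP5, C11orf54, CCDC50, TMSB10 and OCIAD2, with r from 0.996 to 0.997, and their highest library was AG-205 replicate 3, as for AKR1C1. With 6 libraries and so many genes such values are a ranking only.

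The 2 T-HESC libraries with the highest AKR1C1 also had the highest summed level of 14 genes of the oxidative stress regulator NRF2. AKR1C genes are themselves known targets of NRF2. The sum was 4056 CPM in DMSO replicate 3 and 4270 CPM in AG-205 replicate 2. AG-205 replicate 1, with AKR1C1 at 21.8 CPM, had a sum of only 1794 CPM. DMSO replicates 1 and 2, with AKR1C1 at 1.58 and 3.31 CPM, had 1783 and 1804 CPM. AG-205 replicate 3, with AKR1C1 at 7.21 CPM, had 2383 CPM. NQO1, a quinone reductase and standard NRF2 target, had 838 CPM in DMSO replicate 3 and 694 CPM in AG-205 replicate 2, against 176 to 327 CPM in the other 4. DMSO replicate 3 and AG-205 replicate 2 also deviated together from their group means over all genes tested in T-HESC (correlation 0.69). How many other genes peak in these 2 libraries was not determined. The correlation with AKR1C1 over the 6 libraries had a median of 0.74 for the 13 measured targets and of -0.01 for all genes; GCLC, the catalytic subunit of the rate-limiting enzyme of glutathione synthesis, reached 0.98. In HEC-1A the median for 14 targets was 0.28. The summed level of the 6 stromal markers was 12820, 12649 and 20251 CPM with AG-205 and 26549, 21285 and 16977 CPM with DMSO. The 3 lowest sums were in the 3 libraries with the highest AKR1C1, 2 of them treated with AG-205. COL1A1 and COL1A2 had the highest T-HESC DMSO means among these markers (8716 and 6555 CPM). Not every marker followed the sum: VIM was highest in AG-205 replicate 1 (8091 CPM). The part of the NRF2 targets or of the stromal markers in the AKR1C1 levels was not tested.

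**Figure D5:**
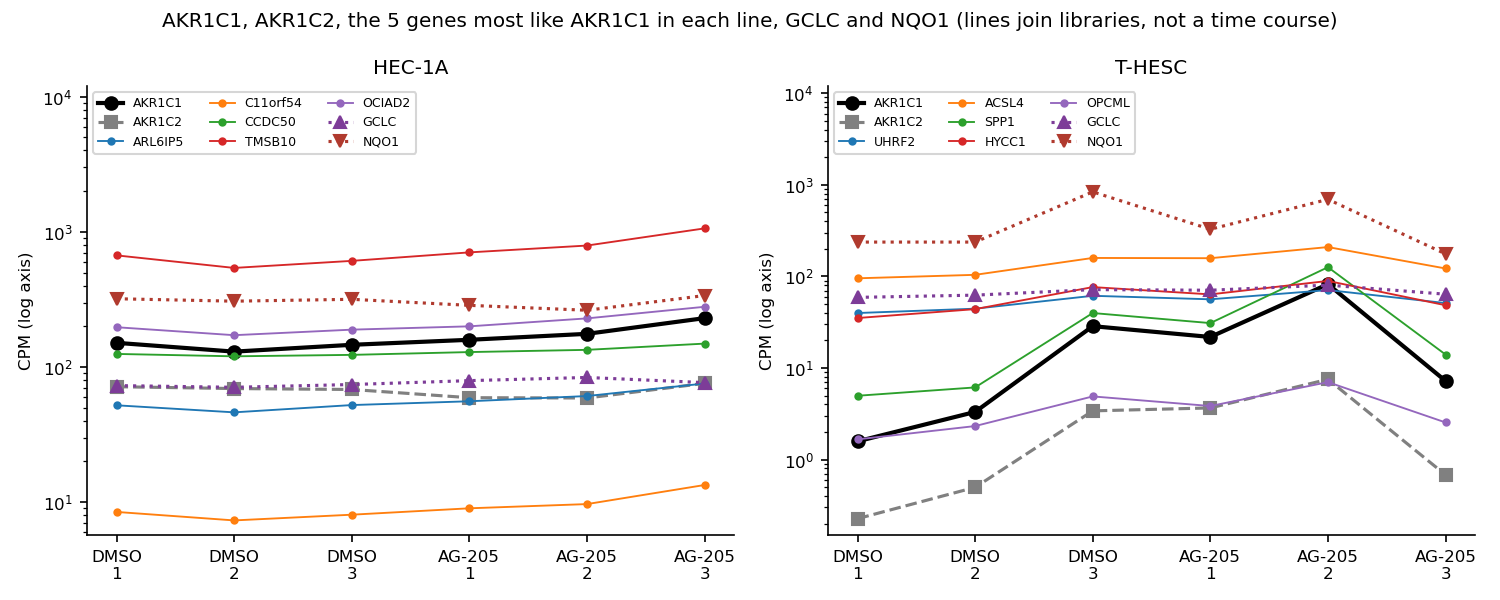
Level in CPM (log y axis) of AKR1C1, AKR1C2, the 5 genes most like AKR1C1, GCLC and NQO1 in each HEC-1A library (left) and T-HESC library (right); lines join libraries of a gene and have no order in time. In T-HESC, AKR1C1, SPP1 and NQO1 share high values in DMSO replicate 3 and AG-205 replicate 2 (28.6 and 82.2 CPM for AKR1C1), and in HEC-1A the curves are nearly flat.

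The rest of the steroid pathway places these enzymes. Synthesis from cholesterol was almost unread: none of its 9 listed genes was high enough to be tested in either line. In HEC-1A each of the 9 had 3 reads or fewer in every library, and in T-HESC 7 did, the highest being CYP11A1, the side-chain cleavage enzyme, with 14 reads in DMSO replicate 1. The 5 redox partners were all tested and 0 were called with AG-205 in either line by edgeR. POR, which feeds electrons to microsomal cytochromes P450, had the highest level of them in HEC-1A (270 CPM) and a log2 fold change of 0.49 (adjusted p = 0.00469 in edgeR), under the fold limit, and FDX1 the lowest (25.5 CPM). In T-HESC the highest was H6PD (214 CPM), which supplies NADPH to HSD11B1 in the endoplasmic reticulum, and the lowest CYB5A (27.0 CPM). H6PD was higher in T-HESC than in HEC-1A under DMSO (214 against 56.3 CPM, log2 fold change 1.92, adjusted p = 4.90e-07 in edgeR), the same direction as HSD11B1, and POR was lower (log2 fold change -1.56, adjusted p = 4.94e-06 in edgeR).

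Among the genes next to the members in function, 2 were called with AG-205 in HEC-1A, beside 2.78% of the 14122 genes tested. They were 1 of the 4 tested genes of hydroxylation and methylation and 1 of the 3 tested carriers of steroid sulfates. CYP1B1, an oestrogen hydroxylase, went from 0.411, 1.43 and 1.08 CPM with DMSO to 1.98, 2.73 and 2.99 CPM with AG-205 (log2 fold change 1.36, SE 0.363, adjusted p = 0.0304 in edgeR), the control values resting on 5 to 18 reads. Its call was lost without DMSO replicate 1 (log2 fold change 0.99, adjusted p = 0.112 in edgeR), without DMSO replicate 3 (adjusted p = 0.0910 in edgeR) and without AG-205 replicate 2 (adjusted p = 0.0817 in edgeR). SLCO2B1, a carrier that imports the sulfated steroids on which STS acts, went from 10.9, 11.7 and 11.3 CPM to 25.5, 24.8 and 19.2 CPM (log2 fold change 1.04, SE 0.132, adjusted p = 0.000293 in edgeR). Without AG-205 replicate 1 the SLCO2B1 log2 fold change was 0.97, under the fold limit. Neither gene overlapped between treatments. The conjugation list also holds SUMF1 and SUMF2, sulfatase-modifying factors that are not conjugating enzymes. None of its 6 tested genes was called in HEC-1A. SUMF2 had the highest level there (173 CPM, log2 fold change 0.24, adjusted p = 0.0832 in edgeR) and SULT2B1 the lowest (1.00 CPM). The 2 other ketosteroid reductases, AKR1B1 (246 CPM) and AKR1C4 (1.65 CPM), were not called either. In T-HESC none of the 4 tested genes of the conjugation list was called by edgeR (PAPSS2 highest at 332 CPM, SUMF1 lowest at 77.6 CPM). Nor were AKR1B1 (180 CPM, log2 fold change 0.83, adjusted p = 0.619 in edgeR) and SLCO3A1 (4.92 CPM), each the single tested gene of its list. Of the NRF2 targets 1 of 14, HMOX1, was called in HEC-1A (log2 fold change 1.22, adjusted p = 0.000215 in edgeR), and 0 of 13 in T-HESC.

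Between the lines under DMSO, 13 of the 20 tested neighbours of the members were called, 11 of them lower in T-HESC, beside the 44.6% called among all genes tested, of which 3296 were higher and 3297 lower. The conjugating enzymes SULT1A1 (37.8 against 0.186 CPM), UGT2B7 (52.2 against 0.0860 CPM) and SULT2B1 (1.17 against 0.103 CPM) were lower in T-HESC, and PAPSS2, which makes the sulfate donor, was higher (392 against 0.219 CPM). All 3 tested carriers of steroid sulfates were lower in T-HESC: SLCO4A1 (0.324 against 160 CPM), SLCO3A1 (5.27 against 29.8 CPM) and SLCO2B1 (0 reads in each DMSO library). So were AKR1B1 (129 against 267 CPM, no longer called without T-HESC DMSO replicate 1, at -0.88 on the log2 scale), AKR1C4 (0 reads in each DMSO library), CYP1A1 (0 reads in each DMSO library) and CYP3A5 (0.743 against 7.66 CPM), and 5 of the 14 NRF2 targets, GCLM, SRXN1, TKT, ME1 and AKR1B10.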

How the data were processed

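The members, gene lists and comparisons were chosen with earlier results of these data known. According to the methods and the submitters' processing notes, polyA-selected libraries were read as paired ends of 150 bases, trimmed with Trimmomatic 0.38, aligned to GRCh38 with HISAT2 2.1.0 and counted per Ensembl 94 gene with featureCounts of Subread 2.0.0. The deposited values are raw counts per gene; strand and multi-mapping settings were not given in the sources used here. Libraries held 7168542 to 15178276 counts, and 23756 of the 58735 genes had none.

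Counts were tested with edgeR 4.0.16 (TMM, filterByExpr, quasi-likelihood, Benjamini-Hochberg; R 4.3.3), within each line for AG-205 against DMSO, over all 12 libraries for the difference of these effects, and over the 6 DMSO libraries for the lines. Calls needed an adjusted p under 0.05 and an absolute log2 fold change over 1, the limits of the study. P-values set a difference of group means against the spread between the 3 cultures of a group, moderated over all genes. Replicate libraries of a group were compared by a chi-square test and none was a copy of another: over the 12 pairs, chi-square per degree of freedom ran from 1.80 to 211. Alternatives were DESeq2 1.42.0, its size factors, other filters, limma 3.58.1 with library quality weights, no fold limit, summed AKR1C counts, each library left out, a replicate block, and all 12 libraries in 1 fit. The script was tested on simulated data: with 200 of 14122 genes changed by 2 on the log2 scale, edgeR recovered 196 in HEC-1A, and with 200 of 13753, 140 in T-HESC. CPM had no prior count, and likeness used log2 CPM with a prior count of 2.

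Genes named are the 8 members, genes of the lists that were called, the highest and lowest tested gene of a list with no call, and the 5 genes most like AKR1C1 per line; NQO1, GCLC and other NRF2 targets beside AKR1C1 were added after their values were seen. Lengths, coding sequences and overlaps came from GENCODE 44, and promoters from RefSeq GRCh38.p14. Intervals and floors (3 counts) cover counting error only, since reads without molecular identifiers are not independent molecules. Protein sequences were not used here, and 1 gene that the naming rule picks is not reported here.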

Additional observations from a re-analysis of the deposited data

How the results depend on the processing

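The number of members called with AG-205 was 0 in HEC-1A under every alternative run. In T-HESC it was 0 but for 1 (AKR1C1) without a filter on low counts and 1 with library quality weights, and for the difference between the lines it was 0 but for 2 (AKR1C1 and AKR1C2) without the filter and 2 with the weights; the cause was not tested. Leaving out 1 library at a time gave 0 to 0 members for each of these 3 comparisons and 5 to 7 between the lines under DMSO, where the other alternatives gave 4 (summed AKR1C counts, which hold fewer members) to 8 (no fold limit). Some small log2 fold changes turned direction when 1 library was left out: SRD5A3 in HEC-1A was -0.05 without DMSO replicate 2 and STS was 0.01 without AG-205 replicate 3, in ranges of -0.05 to 0.15 and -0.22 to 0.01 over the 6 libraries left out. In T-HESC, SRD5A1 was -0.07 without DMSO replicate 1 and -0.10 without AG-205 replicate 2, SRD5A3 was -0.02 without AG-205 replicate 2, and STS was 0.05 without DMSO replicate 3, 0.10 without AG-205 replicate 1 and 0.24 with library quality weights; the ranges were -0.10 to 0.11, -0.02 to 0.34 and -0.36 to 0.10. The difference between the lines was -0.07 for AKR1C3 without T-HESC DMSO replicate 1 and -0.09 without T-HESC AG-205 replicate 1, and -0.03 for AKR1C1 and -0.07 for SRD5A3 without T-HESC AG-205 replicate 2, in ranges of -0.09 to 1.07, -0.03 to 3.53 and -0.07 to 0.30. Of the other values of single members, 402 kept their call without turning direction, 8 gained a call and 3 lost 1. The 402 include the difference between the lines for STS. Its main value of 0.00 has no direction to turn, and it ran from -0.21 to 0.33 over 19 alternatives. Of the called genes of the other lists, 408 values kept their call and 9 lost it; with all 12 libraries in 1 fit, CYP1B1, SLCO2B1 and HMOX1 were no longer called in HEC-1A (adjusted p = 0.358, 0.0800 and 0.146 in edgeR). Replicate numbers are shared by the groups, but same-numbered libraries deviated together in neither line (over 3 pairs each, correlations ran from -0.08 to 0.23 for HEC-1A libraries and from -0.53 to 0.22 for those of T-HESC), and not every library correlated best with its own number: differently numbered T-HESC pairs reached 0.69 (AG-205 replicate 2 with DMSO replicate 3). The numbers were therefore not taken to pair the libraries. With the replicate block, 0 members were called in HEC-1A, 0 in T-HESC and 0 for the difference, and AKR1C1 had log2 fold changes of 0.39, 2.55 and 2.03 in these comparisons. At these depths, decreases or small increases with AG-205 in AKR1C3 and HSD11B2 in T-HESC and in HSD11B1 in HEC-1A were not detectable. The AG-205 libraries held 4, 3 and 1 reads of AKR1C3, 2, 0 and 4 of HSD11B2, and 0 of HSD11B1 in each.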

Other observations

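AKR1C4 and the AKR1C7P pseudogene, further along the same cluster, were read at low levels in HEC-1A and hardly in T-HESC. AKR1C4, a mainly hepatic 3-alpha reductase, had 22, 25 and 12 reads with AG-205 and 17, 21 and 23 with DMSO in HEC-1A, and 0 in each of the 6 T-HESC libraries. AKR1C7P had 28, 23 and 16 reads with AG-205 and 24, 20 and 34 with DMSO in HEC-1A; T-HESC libraries held 0 to 3. AKR1C8 had 7 reads or fewer in every library. SRD5A2, the other 5-alpha reductase, had 4 reads or fewer in every library.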
